A study of Homo sapiens with 6 samples.

Results

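REST is the DNA-binding member of a repressor assembly, and the corepressor genes examined with it were RCOR1, RCOR2, RCOR3, KDM1A, SIN3A, SIN3B, HMG20B and CTDSP1. These 9 genes were chosen by name, out of 47470 genes listed in the count files, and all 9 had enough reads to be tested. RNA-seq was performed on HEK293T cells, an established line from human embryonic kidney that expresses a viral large T antigen. The untreated group (3 libraries, genotype labelled WT) received no valproic acid (VPA). The VPA-treated group (3 libraries) was kept for 1 day in medium with VPA at 1 mM, which inhibits histone deacetylases. By the study's methods, cells with and without VPA were given fresh medium and cultured for 1 day. The comparison asks which transcripts of the REST assembly differed between the groups.

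REST silences neuronal genes in cells that are not neurons. Its zinc fingers bind a DNA element called RE1, its N-terminal part recruits the SIN3 scaffolds, and its C-terminal part recruits the CoREST scaffold encoded by RCOR1. Both scaffolds carry the deacetylases HDAC1 and HDAC2, which VPA inhibits, and CoREST also carries the histone demethylase KDM1A (LSD1). The proteins are general chromatin factors, and several of them also serve complexes without REST.

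The RE1 element is shown first, since the target genes described further on are known to be repressed through it. Those genes were listed by name and not by a match to the element. The core searched was CAGCACC, then 2 bases of any kind, then GGACAG, on both strands of 300-base promoter windows from RefSeq (GRCh38.p14, 250 bases before to 50 after each start site), with up to 2 mismatches over its 13 fixed letters. The exact core was present in 0.0513% of all 35116 windows, and a core with up to 2 mismatches in 2.03%. Of the 33 RE1 target genes with a window, 3 held the exact core and 6 a core with up to 2 mismatches. These are counts of genes with a core in any of their 51 windows, whereas the shares above are of windows. Windows were available for 8 of the 9 members, with no entry for RCOR2, and none of their 17 windows held such a core. The sites below are those of the target genes with at most 1 mismatch outside chromosome X, with the fixed letters of the core in capitals, on the strand that carries it. Positions of substitutions are counted from 1 at the first letter of the core.
GRIA2 (chr4:157220386-157220412, minus strand, exact core): gcctttCAGCACCgaGGACAGcgcctc
DRD3 (chr3:114178960-114178986, minus strand, exact core): ctctttCAGCACCaaGGACAGaacctc
VGF (chr7:101165555-101165581, plus strand, C7G): cggcttCAGCACGctGGACAGcgcccg
CDK5R1 (chr17:32486974-32487000, plus strand, C4A): tgcctgCAGAACCttGGACAGaagctc
The core centres lay -220, -197, 1 and -6 bases from the annotated start sites of GRIA2, DRD3, VGF and CDK5R1, respectively. A match is a description of the letters and does not show that REST was bound there. Nor does the absence of a core from these 300-base windows show that a gene lacks an RE1 element elsewhere.

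The libraries held 18622267 to 18828495 counts on genes, so depth differed little. Between libraries of the same group the chi-square per gene was 1.62 to 4.80, above sampling noise, and each counted as 1 replicate. The labels call them replicates without naming separate cultures, so the p-values measure the spread between these libraries, which may be technical. The kidney line markers VIM, KRT8, KRT18, PAX2 and LHX1 were counted in all 6 libraries. In the untreated and VPA-treated groups their mean normalized counts were 10739 and 8931 for VIM, 389 and 1004 for KRT8, 1037 and 1207 for KRT18, 29.6 and 142 for PAX2, and 73.8 and 127 for LHX1. Among markers of blood, liver and endothelium, CD14 was at 1.91 to 11.6 normalized counts, and PTPRC, CD3E, HBB, ALB, APOA2, PECAM1 and CDH5 were at 0 to 4.79. The glial markers GFAP and AQP4 had means of 13.2 and 8.36 in untreated and 41.3 and 81.9 in VPA-treated cells. All 1437 listed genes of chromosome X were at 0 in every library, which removed the X-linked partners and target genes named further on. Normalized counts are TMM-scaled to the mean library.

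By edgeR's quasi-likelihood test, RCOR2 was the single member past the study's pair of thresholds, which ask for a log2 fold change of 1 or more in either direction with an adjusted p under 0.05. At the adjusted p alone, 2 of the 9 members were higher in VPA-treated cells, RCOR2 and HMG20B, and 2 were lower, RCOR1 and SIN3A. REST itself, KDM1A, RCOR3, SIN3B and CTDSP1 did not pass. Over all 15298 genes tested, 32.9% were higher and 30.0% lower at the adjusted p, and 12.0% were higher and 0.503% lower past both thresholds, so the share of members called was not above the background. The median log2 fold change was -0.04 over the members and 0.0058 over all genes tested. Every VPA-treated library was above every untreated one for 2 members and below for 2, where 34.8% and 31.0% of all genes tested were separated in this way.

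**Figure D1:**
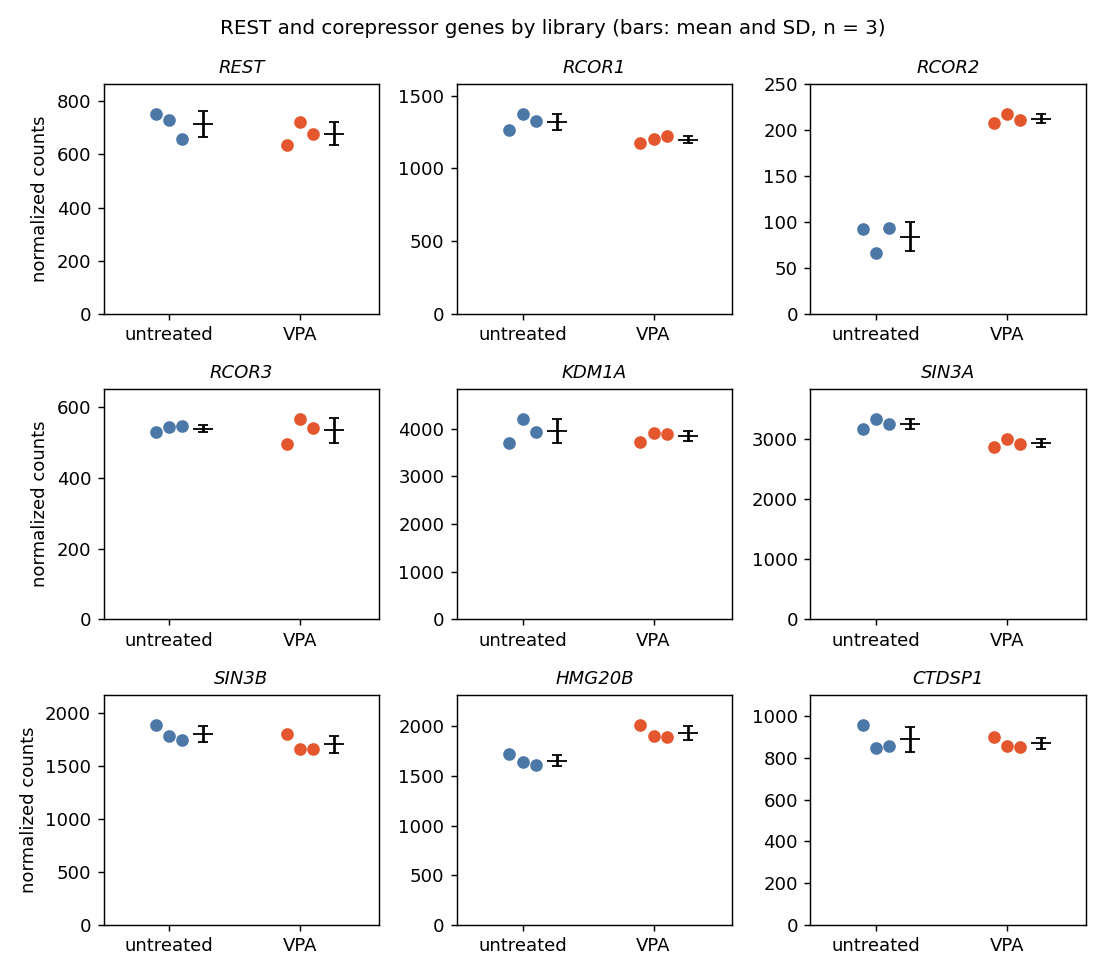
Normalized counts of the 9 genes in each library, with 1 point per library on an axis from 0 and the group mean and SD (n = 3) beside the points. RCOR2 rose from 83.8 to 212 on average and HMG20B from 1655 to 1937, while the points of REST, RCOR3, KDM1A, SIN3B and CTDSP1 overlap between untreated and VPA-treated cells.

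REST lies on chromosome 4 from 56907876 to 56966808 on the plus strand (GENCODE 44, GRCh38, used for all gene positions here). It had 754, 731 and 658 normalized counts in the untreated libraries and, after VPA, 634, 722 and 679. The groups overlapped, with the lowest value in VPA-treated replicate 1 and the highest in untreated replicate 1. The means were 714 ± 49.8 and 679 ± 44 (SD, n = 3 each). The log2 fold change was -0.07 with a standard error of 0.06 and a 95% confidence interval of -0.21 to 0.06 (adjusted p = 0.319, edgeR). With ribosomal protein genes as the scale it was 0.20 (adjusted p = 0.0115, same test). On a linear scale the interval runs from 0.867-fold to 1.04-fold, which leaves room for a decrease or a small increase of the transcript. In a bulk library fewer expressing cells and less RNA per cell cannot be told apart. The transcript total does not tell REST isoforms apart, nor does it measure the protein, whose level is known to be set by ubiquitin-dependent turnover.

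The RCOR genes encode the CoREST scaffolds that join KDM1A to the deacetylases. RCOR1 (chromosome 14, 102592649 to 102730561, plus strand) is the form first found with REST. It had 1264, 1376 and 1323 normalized counts in untreated and 1173, 1200 and 1220 in VPA-treated cells, so that each VPA-treated library was below each untreated one. RCOR1 fell by 9.34% with TMM scaling (log2 fold change -0.14, standard error 0.05, adjusted p = 0.0142 in edgeR), but the sign turned with ribosomal protein genes as the scale (0.13, adjusted p = 0.0226 from the same test). The call was lost with upper quartile scaling (-0.08, adjusted p = 0.184) and with library totals (-0.01, adjusted p = 0.872). Without untreated replicate 2, the highest of the untreated values, the log2 fold change was -0.12 and the adjusted p 0.0697.

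RCOR2 (chromosome 11, 63911230 to 63917164, minus strand) is the paralogue known from embryonic stem cells and neural progenitors. It had 92.1, 65.9 and 93.4 normalized counts in the untreated libraries against 208, 218 and 211 in the VPA-treated libraries. The VPA-treated values lay close together, and the lowest of them was above the highest untreated value by more than the whole untreated range. The increase was 2.53-fold, with a 95% confidence interval of 2.14 to 2.99 (log2 fold change 1.34, standard error 0.12, adjusted p = 2.09e-09 in edgeR). The value rests on 904 counts over the 6 libraries, the fewest of the 9 genes. Its mean over the libraries was under 200 normalized counts. Of the 5537 tested genes under that limit, 46.2% were called higher and 27.1% were higher past both thresholds, so such a rise was common at this level. Leaving out any single library kept the log2 fold change between 1.18 and 1.41, and no gene overlaps RCOR2 in the annotation.

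RCOR3 (chromosome 1, 211258377 to 211316385, plus strand) encodes the remaining scaffold of the family. It had 529, 544 and 546 normalized counts in untreated and 496, 566 and 540 in VPA-treated cells. The VPA-treated libraries spanned the untreated ones on both sides. The log2 fold change was -0.01 with an interval of -0.15 to 0.12 (adjusted p = 0.852, edgeR).

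Because these paralogues were counted in the same libraries, their ratios do not depend on the scaling between libraries. The log2 ratio of RCOR2 to RCOR1 counts was -3.78, -4.38 and -3.82 in untreated and -2.50, -2.46 and -2.53 in VPA-treated cells, a mean difference of 1.5. The ratio of RCOR3 to RCOR1 was also higher in each VPA-treated library, by a mean of 0.12. For both, the exact permutation test over libraries (two-sided) gave p = 0.1, the smallest that 3 libraries against 3 allow, and 0.16 after Benjamini-Hochberg adjustment over the 8 ratios examined. Per kb of the canonical transcript, RCOR2 made up 7.60% ± 1.48 of the summed RCOR level without VPA and 18.2% ± 0.317 with it (SD, n = 3 each). The share of RCOR1 was 60.6% ± 1.58 and 52.0% ± 0.994, and that of RCOR3 31.8% ± 0.145 and 29.8% ± 1.08. RCOR1 held the largest share in each of the 6 libraries. With the union of all annotated exons as the length, the RCOR2 share was 9.18% and 21.6%. The RCOR3 share was then 19.8% and 18.3%, so the order of RCOR2 and RCOR3 in VPA-treated cells depends on the length taken.

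**Figure D2:**
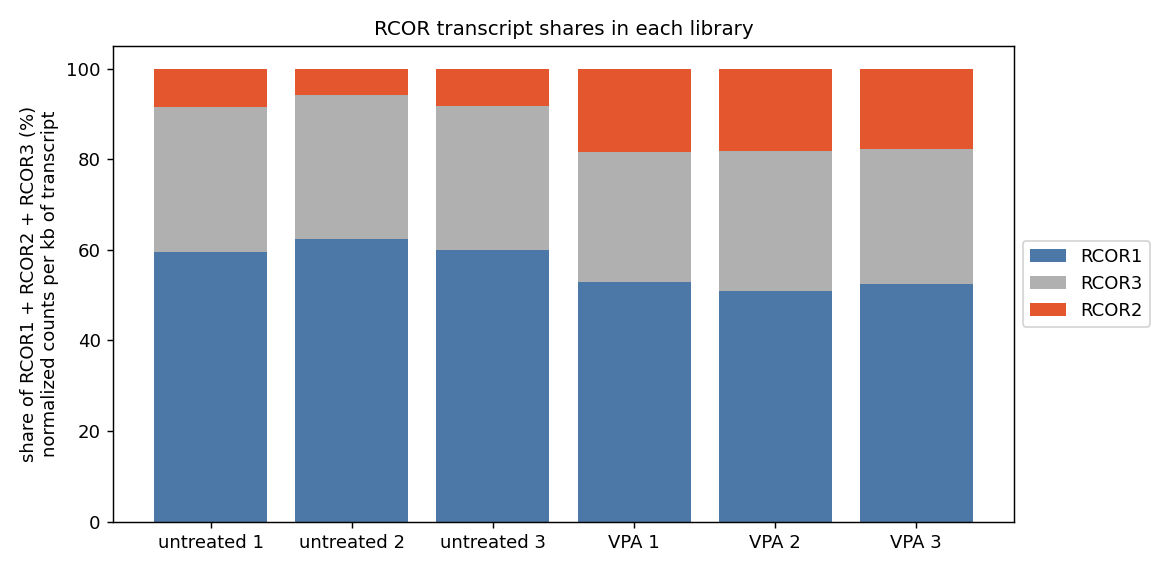
Share of RCOR1, RCOR3 and RCOR2 in their summed level in each library, in percent of normalized counts per kb of canonical transcript, with 1 bar per library. The RCOR2 segment is 5.90% to 8.55% in the untreated libraries and 17.8% to 18.5% in the VPA-treated libraries.

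KDM1A (chromosome 1, 23019443 to 23083689, plus strand) encodes LSD1, the demethylase of lysine 4 on histone H3 in the CoREST complex. It was the member with the most counts, 3696, 4202 and 3934 normalized counts in untreated and 3725, 3912 and 3886 in VPA-treated cells. All VPA-treated values fell within the untreated range. The log2 fold change was -0.04 with an interval of -0.13 to 0.06 (adjusted p = 0.479, edgeR). The log2 ratio of KDM1A to RCOR1 was higher in each VPA-treated library by a mean of 0.10, with the same smallest exact permutation p = 0.1.

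HMG20B (chromosome 19, 3572777 to 3579088, plus strand) encodes BRAF35, a DNA-binding subunit of the KDM1A and CoREST complex with an HMG box. It had 1719, 1640 and 1607 normalized counts in untreated and 2018, 1903 and 1890 in VPA-treated cells, with a gap between the groups. HMG20B rose by 17.0% (log2 fold change 0.23, standard error 0.05, adjusted p = 0.000185 in edgeR). The annotated span of HMG20B overlaps that of MFSD12 on the opposite strand, whose log2 fold change was -0.09 (adjusted p = 0.193, edgeR). The strand setting of the counting is not given in the sources used here.

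SIN3A (chromosome 15, 75369379 to 75455842, minus strand) and SIN3B (chromosome 19, 16829398 to 16880353, plus strand) encode the scaffolds bound by the N-terminal part of REST. SIN3A had 3168, 3327 and 3249 normalized counts in untreated and 2862, 2994 and 2914 in VPA-treated cells, without overlap. SIN3A fell by 9.98% with TMM scaling (log2 fold change -0.15, standard error 0.04, adjusted p = 0.00247 in edgeR), whereas with ribosomal protein scaling it was 0.12 higher (adjusted p = 0.0115, same test). The call was lost with upper quartile scaling (-0.09, adjusted p = 0.0725) and with library totals (-0.02, adjusted p = 0.674). SIN3B had 1893, 1782 and 1743 against 1801, 1660 and 1657, values that overlapped. Its log2 fold change was -0.08 with an interval of -0.18 to 0.02 (adjusted p = 0.143, edgeR), and it passed without VPA-treated replicate 1, the highest VPA-treated value (-0.12, adjusted p = 0.0372), and with the replicate number as a block (adjusted p = 0.0342). The log2 ratio of SIN3B to SIN3A overlapped between the groups, with means of -0.85 and -0.78 (exact permutation p = 0.5).

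CTDSP1 (chromosome 2, 218397136 to 218405941, plus strand) encodes a small phosphatase of the RNA polymerase II tail that is recruited to RE1 genes and also acts on REST. It had 961, 850 and 860 normalized counts in untreated and 900, 858 and 853 in VPA-treated cells. The VPA-treated values lay within the untreated range, and the log2 fold change was -0.03 with an interval of -0.15 to 0.08 (adjusted p = 0.634, edgeR). Both of its paralogues were higher in VPA-treated cells with TMM scaling, CTDSP2 with a log2 fold change of 0.25 (adjusted p = 3.17e-05) and CTDSPL with 0.12 (adjusted p = 0.0429, edgeR for both). The value for CTDSPL lay close to the limit of 0.05. The log2 ratio of CTDSP1 to CTDSP2 was -1.10, -1.33 and -1.29 in untreated and -1.41, -1.58 and -1.55 in VPA-treated cells, a difference of -0.28 that separated the groups (exact permutation p = 0.1, the smallest possible).

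The 3 phosphatase genes share a feature of position. Each holds a gene of the miR-26 family in an intron of its canonical transcript, on the same strand. The mature sequences (RefSeq, GRCh38.p14) are given with the seed, bases 2 to 8, in capitals, which is the same in all of them.
hsa-miR-26b-5p (MIR26B, in CTDSP1, chr2:218402657-218402677, plus strand): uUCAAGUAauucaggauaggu
hsa-miR-26a-5p (MIR26A2, in CTDSP2, chr12:57824658-57824679, minus strand): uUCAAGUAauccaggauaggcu
hsa-miR-26a-5p (MIR26A1, in CTDSPL, chr3:37969413-37969434, plus strand): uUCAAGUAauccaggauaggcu
Libraries made from mRNA do not measure such short RNAs, so no level is given for them.

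Levels of different genes can be compared only per length. Per kb of canonical transcript, the untreated normalized counts were highest for KDM1A (1278 ± 82.0), followed by HMG20B (1044 ± 36.1), SIN3A (483 ± 11.8), SIN3B (358 ± 15.4), CTDSP1 (353 ± 24.3), RCOR1 (230 ± 9.77), RCOR3 (121 ± 2.08), REST (97.7 ± 6.82) and RCOR2 (28.8 ± 5.32, SD, n = 3 each). SIN3B and CTDSP1 overlapped, and every other pair of neighbours was separated over the 3 libraries. In VPA-treated cells KDM1A (1245 ± 32.9) and HMG20B (1222 ± 44.4) overlapped, as did CTDSP1 and SIN3B. RCOR2 was still last at 72.8 ± 1.73, next to REST at 92.8 ± 6.03 (SD, n = 3 each). The order depends on the length taken, and per kb of all annotated exons HMG20B was first and KDM1A ranked 3 in both groups. REST ranked 8 of 9 by the canonical length and 7 of 9 by all exons. By all exons RCOR2 was last in untreated cells only. In VPA-treated cells it ranked 8 at 69.6 ± 1.65, above RCOR3 at 58.8 ± 3.89 (SD, n = 3 each).

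Across the 6 libraries, the genes whose log2 normalized levels were most like those of REST were ATP5F1E (Pearson r = 0.988), NPIPB9 (0.985) and AMOTL1 (0.982), and 29 genes exceeded 0.9. With 6 libraries in 2 groups that share depth and preparation, this is a description with no test.

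The direction of the small changes depended on how the libraries were scaled. The median log2 fold change of all genes tested was 0.0058 with TMM, -0.0081 with DESeq2 size factors, 0.07 for upper quartile scaling, 0.14 for library totals and 0.28 for ribosomal protein genes. A change of scale shifts all genes by nearly the same amount, so the members necessarily kept their places relative to that median. Over the 5 scalings REST lay 0.08 below it, RCOR1 0.15 below, SIN3A 0.16 below, HMG20B 0.22 above and RCOR2 1.33 above. RCOR2 and HMG20B were called higher under each of these scalings, and with ribosomal protein genes all 9 members were.

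**Figure D3:**
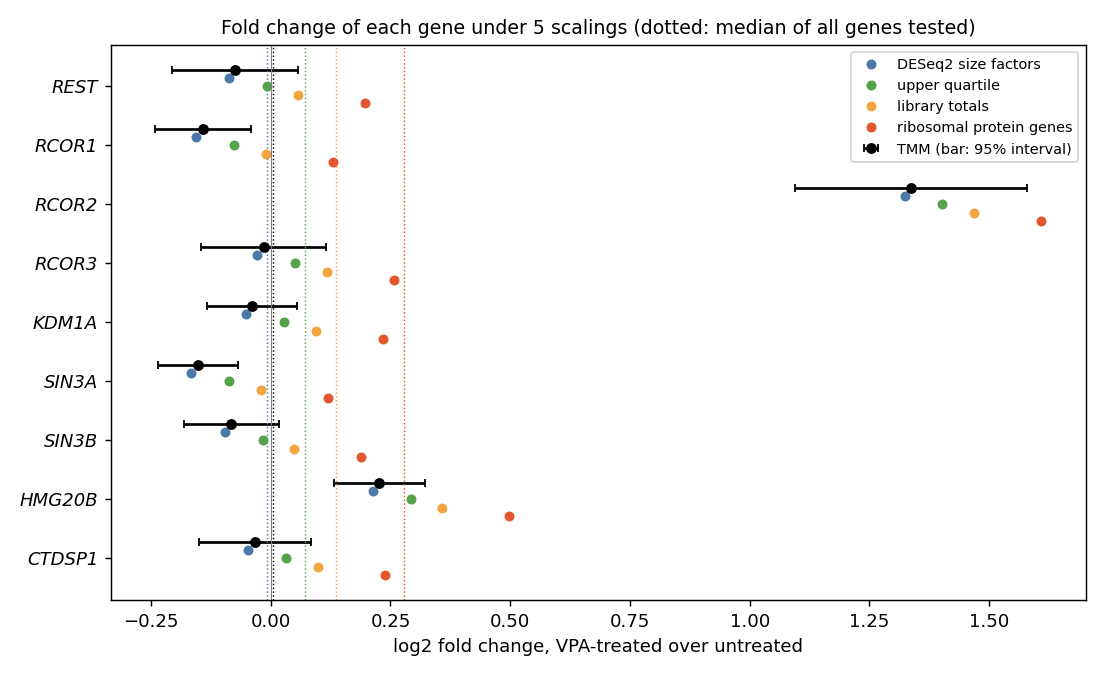
Log2 fold change of each gene, VPA-treated over untreated, under 5 scalings of the libraries, with the 95% confidence interval drawn for TMM and a dotted line at the median of all genes tested under each scaling. RCOR2 stands apart at 1.34 and HMG20B is at 0.23 with TMM, while the other 7 genes lie between -0.15 and -0.01 with TMM and all are above 0 with ribosomal protein genes.

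The other subunits around KDM1A and CoREST were described by a list of 13 genes, of which 12 were tested and ZMYM3 on chromosome X was at 0. At the adjusted p, 2 were higher and 3 lower, against 32.9% and 30.0% of all genes tested, with a median log2 fold change of 0.01. HDAC1 and HDAC2, the catalytic deacetylases, had log2 fold changes of 0.02 (interval -0.06 to 0.10) and 0.0022 (interval -0.08 to 0.09), and neither passed. PHF21A, which reads unmodified lysine 4 of histone H3, rose from a mean of 583 ± 35.9 to 695 ± 23.1, and ZNF217, a zinc finger protein, from 425 ± 25.8 to 535 ± 14.4 (normalized counts, SD, n = 3 each). Their adjusted p-values were 0.000927 and 0.000129 in edgeR. The methyltransferases of lysine 9 of histone H3 were lower. EHMT2 (G9a) fell by 0.35 on the log2 scale and EHMT1 (GLP) by 0.25 with TMM scaling (adjusted p = 3.82e-07 and 8.04e-05, edgeR). CTBP1, a corepressor that binds KDM1A complexes, fell by 0.16 (adjusted p = 0.00608, edgeR), although its libraries overlapped. With ribosomal protein scaling 9 of the list were higher and 0 lower.

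Among 19 further subunits of the SIN3 complexes 18 were tested, and RBBP7 on chromosome X was at 0. With TMM scaling 10 were lower and 2 higher, a share of 55.6% lower beside 30.0% of all genes tested, and the median log2 fold change was -0.15. This direction depended on the scaling, since 3 were lower with library totals, and ribosomal protein scaling gave 9 higher and 1 lower. BRMS1, a subunit of the complex, had 1577, 1515 and 1552 normalized counts in untreated and 1197, 1132 and 1184 in VPA-treated cells (log2 fold change -0.40, adjusted p = 1.40e-07, edgeR). The histone-binding subunit RBBP4 was at -0.32 and SAP18 at -0.32 on the same scale, both past the test, and BRMS1L at -0.25. ARID4A (0.25) and SAP30L (0.23) were the members called higher, where the libraries of ARID4A overlapped between the groups.

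A list of 16 genes covered REST turnover, splicing, partners and phosphatases, with 14 tested and SRRM4, at 13 counts in all, among those that were not. With TMM scaling 7 were lower and 3 higher, where 30.0% and 32.9% of all genes tested were, with a median of -0.12, but 1 was lower and 5 were higher with library totals. DESeq2 called 2 of the list higher. BTRC, the F-box protein that marks REST for degradation, fell by 0.16 on the log2 scale (adjusted p = 0.00562, edgeR), and CUL1, the scaffold of the same ligase, fell by 0.25 (adjusted p = 2.90e-05, edgeR), both with TMM scaling. CSNK1A1 fell by 0.22 and SMARCA4 by 0.17 in that fit. SRRM3, a splicing factor paralogous to SRRM4, was the list's largest change. It had 85.9, 79.6 and 63.0 normalized counts in untreated and 169, 129 and 170 in VPA-treated cells (log2 fold change 1.03, adjusted p = 1.05e-06, edgeR).

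The genes that REST is known to repress through RE1 elements were followed with a list of 48, including SRRM3 and SRRM4. Of these 11 were at 0 in every library, 10 had too few counts to be tested and 27 were tested. The 11 include SYN1, SYP, L1CAM and BEX1 of chromosome X, where every listed gene was at 0. Their zeros therefore do not show that they were silent. Among the tested genes 22 were higher and 1 lower at the adjusted p, 14 passed both thresholds and 4 were not called, with a median log2 fold change of 1.03. Over all genes tested 32.9% were higher, 30.0% lower and 12.0% higher past both thresholds. A low gene passes the count filter through the group in which it is high, so these counts are a description of the tested genes and not of the 48. Low genes were also called higher more often in general, 46.2% of the 5537 whose mean was under 200 normalized counts against 25.4% of those above. In the list, 15 of 19 genes under that limit and 7 of 8 above it were higher. Past both thresholds were 12 of the 19 and 2 of the 8, beside 27.1% and 3.38% of all genes tested in these classes. The list was chosen with earlier results of these data known, and the classes do not remove the effect of the filter. These shares are therefore no test of the list. The part of the glial and kidney markers that also stood higher after VPA was not tested.

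HCN4, the pacemaker channel, had 14.5, 18.8 and 11.5 normalized counts in untreated and 110, 104 and 110 in VPA-treated cells (log2 fold change 2.84, standard error 0.18, adjusted p = 1.26e-11, edgeR). RAB3C, a vesicle GTPase, was at 2.03 and the sodium channel subunit SCN3B at 1.63 on the log2 scale. In these 3 genes every VPA-treated library was above every untreated one, as in 34.8% of all genes tested. They were named for the size of their rise, so this separation adds no further evidence. The promoter windows of HCN4 and RAB3C held no core with up to 2 mismatches, and SCN3B had no window. TUBB3, a tubulin gene with a window that holds a core with 2 mismatches, rose from a mean of 162 to 422 normalized counts. Its log2 fold change was 1.37 (adjusted p = 1.94e-11, edgeR). CDK5R1, the activator of the kinase CDK5 whose promoter window holds the C4A core shown above, was the list's gene called lower with TMM scaling, from 404, 380 and 365 to 345, 334 and 293 normalized counts (log2 fold change -0.24, adjusted p = 0.00891, edgeR). Under ribosomal protein scaling and under library totals 0 of the tested genes in the list were called lower.

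The other genes with a printed RE1 core had too few reads for the test. GRIA2, a glutamate receptor subunit, had 1, 0 and 2 counts in the untreated and 10, 7 and 5 in the VPA-treated libraries. VGF, a neuropeptide precursor, had 8, 3 and 6 against 9, 12 and 5 counts, and DRD3, a dopamine receptor, had 1 count in all. The GRIA2 values did not overlap between the groups, whereas those of VGF and DRD3 did.

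**Figure D4:**
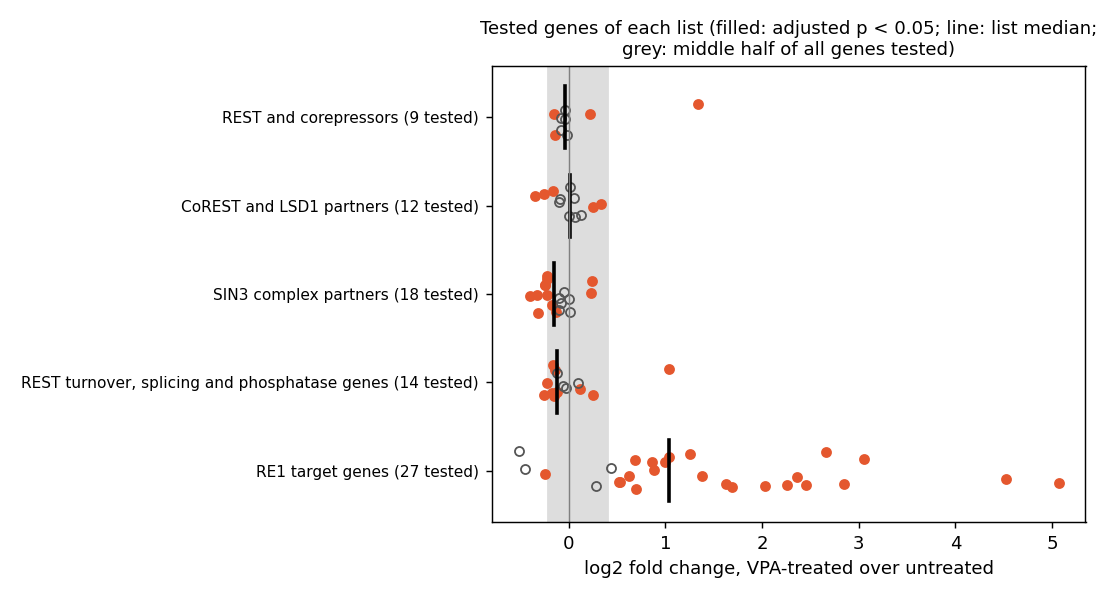
Log2 fold change of the tested genes of each list, VPA-treated over untreated with TMM scaling, where filled points passed an adjusted p of 0.05, a black line marks the list median and the grey band holds the middle 50% of all genes tested. The REST and corepressor genes centre on -0.04 with RCOR2 apart at 1.34, whereas the tested RE1 target genes centre on 1.03. Genes with too few counts are left out, and a low gene passes that filter through the group in which it is high.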

How the data were processed

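Raw counts per gene, deposited by the authors for each library, were used. Cleaning (SOAPnuke), alignment to hg38 (STAR) and counting (htseq-count) were done by the authors. The submitters' processing notes name STAR 2.7.10b and HTSeq 2.0.1, and the annotation and strand setting are not given in the sources used here. The 5 summary lines, 11.8% to 12.7% of the listed reads, were left out. Counts were tested with edgeR 4.0.16 (R 4.3.3) after TMM normalization and the filterByExpr filter (count minimum 10), with a robust quasi-likelihood fit on condition, a prior count set at 0.125 and Benjamini-Hochberg adjusted p-values over all 15298 genes tested. Standard errors and 95% intervals come from the same fit. The test was checked on simulated data. Groups and replicate numbers were taken from sample titles. Lengths and positions are from GENCODE 44. Genes named beside the members were, of each list, up to 4 called in each direction with the largest change and a mean of at least 50 normalized counts, those used in ratios, HDAC1, HDAC2 and MFSD12 as partners or overlaps chosen after values were seen, those with a printed core, and the 3 most like REST. Alternatives were DESeq2 1.42.0, 4 other scalings, 2 other filters, an FDR of 0.01, a replicate block and each library left out. TUBB3 was named as well, for its core with 2 mismatches, after values were seen. The members and lists were chosen with earlier results of these data known. Some items that these rules name are not reported here.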

Additional observations from a re-analysis of the deposited data

How the results depend on the processing

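RCOR2 and HMG20B kept their direction and call in every alternative run, and the number of members past both thresholds stayed at 1. With upper quartile 0 members were lower, RCOR3, KDM1A and CTDSP1 turned to 0.0506, 0.0272 and 0.0326 (log2 fold change), 5 CoREST partners were higher and 3 turnover genes lower. With library totals 0 members were lower, and REST, RCOR3, KDM1A, SIN3B and CTDSP1 turned to 0.0572, 0.12, 0.0938, 0.0493 and 0.10. There 7 CoREST partners were higher, 3 SIN3 partners lower, 5 turnover genes higher and 1 lower, and 0 RE1 targets lower. With ribosomal protein scaling 9 members were higher and 0 lower, with REST at 0.20, RCOR1 0.13, RCOR3 0.26, KDM1A 0.23, SIN3A 0.12, SIN3B 0.19 and CTDSP1 0.24. There 9 CoREST partners were higher and 0 lower, 9 SIN3 partners higher and 1 lower, 11 turnover genes higher and 0 lower, and 0 RE1 targets lower. These shifts follow from the scaling, which moved the median of all genes, and the share of higher genes among all called ones rose from 52.3% under TMM to 63.0% (upper quartile), 73.9% (totals) and 91.6% (ribosomal). With at least 10 counts in every library RCOR3 was at 0.0077 and 14 RE1 targets were higher, as 17 were tested. DESeq2 called 1 SIN3 partner higher. At an FDR of 0.01, 1 member was lower.

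With each library left out in turn, 2 members were higher and 1 to 3 lower, and 1 was past both thresholds. REST ranged from -0.14 to -0.03. CTDSP1 ranged from -0.0724 to 0.0197, positive without untreated replicate 1, KDM1A from -0.0891 to 0.0023, positive without untreated replicate 2, and RCOR3 from -0.0597 to 0.0350, positive without VPA-treated replicate 1. The cause was not tested. CoREST partners gave 2 to 3 higher and 2 to 5 lower, SIN3 partners 1 to 2 and 9 to 13, turnover genes 2 to 3 and 5 to 8, and RE1 targets 21 to 22 and 1 to 1. The ratios kept their sign with each library left out and with 1 count added.

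The replicate block gave 5 CoREST partners lower in place of 3 and 3 members lower in place of 2, with SIN3B added. For same-numbered libraries the deviations gave r = 0.20, 0.039 and 0.13, so the numbers were not taken to pair the libraries, although each library correlated best with its own number. Of the RE1 targets, 10 had too few counts to be tested.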
